A study of Mus musculus with 3 samples.

Results

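The clustered histone genes encode the proteins around which DNA is wound, and in these liver tables they were 68 of 23356 gene symbols. They are the genes whose symbol begins with Hist1h, Hist2h, Hist3h or Hist4h, taken by name and not by level. By class there were 6 genes of the linker histone H1, 18 of H2a, 19 of H2b with the pseudogene Hist3h2bb-ps, 12 of H3 and 13 of H4. The 68 symbols stood in 73 rows, and of a repeated symbol the row with the highest mean level was kept. No member was missing in any library. Of the 68 members, 61 reached 1 FPKM in at least 1 library and 7 did not.

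Core histones H2a, H2b, H3 and H4 form the nucleosome, and H1 binds the linker DNA between nucleosomes. Most clustered genes are known to be transcribed while DNA is replicated, and their mRNAs mostly end in a stem-loop in place of a poly(A) tail. The stem-loop binding protein SLBP recognises this element. Adult hepatocytes divide rarely, and cells that do not divide are known to use replacement histones encoded outside the clusters.

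RNA came from livers of mice aged 16 weeks on a C57BL6J/FVB background, with 1 library in each of 3 groups. The wt AL library is wildtype, fed ad libitum. The Ercc1 AL library is Ercc1 delta/-, with a delta and a null allele of a DNA repair gene, fed ad libitum. The Ercc1 DR library is of the same genotype under diet restriction, to a degree the labels do not give. Nothing in the labels tells a single animal from a pool, and with 1 library a group no difference could be tested against animals. Ercc1 itself had 0.461 FPKM in wt AL, 0.573 in Ercc1 AL and 0.475 in Ercc1 DR, with overlapping intervals, so its level did not tell the genotypes apart and is no check of the labels.

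Levels are given in FPKM, a fragment count scaled by transcript length and by sequencing depth, as deposited. A difference is the log2 ratio of FPKM + 1 between libraries that had first been rescaled to each other. Over 9109 genes the median log2 ratio before rescaling was 0.49 for Ercc1 AL against wt AL, 0.33 for Ercc1 DR against Ercc1 AL and 0.78 for Ercc1 DR against wt AL. A gene was measured in a comparison at 1 FPKM or more in either library, and was counted as higher or lower from 2-fold. Adding 1 makes ratios of genes near 1 FPKM too small. Each deposited FPKM has an interval, which describes the uncertainty inside a library only.

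Coding sequences of H4 genes are shown because these genes had the largest class medians in Ercc1 AL against wt AL and in Ercc1 DR against Ercc1 AL, and because fragments of like copies can be assigned to either. The first 60 coding bases are from GENCODE release M21, in the direction of the gene, with capitals for bases that differ from Hist1h4d.
Hist1h4d: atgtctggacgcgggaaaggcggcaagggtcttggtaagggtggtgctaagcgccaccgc
Hist1h4b: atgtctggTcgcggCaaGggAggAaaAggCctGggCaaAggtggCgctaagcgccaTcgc
Hist1h4h: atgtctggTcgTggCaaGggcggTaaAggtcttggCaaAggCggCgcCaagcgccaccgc
Hist2h4: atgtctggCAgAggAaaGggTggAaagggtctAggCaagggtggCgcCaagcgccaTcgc
Hist4h4: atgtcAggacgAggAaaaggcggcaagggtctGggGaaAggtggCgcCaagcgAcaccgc
Over the 312 coding bases, identity to Hist1h4d was 93.9% for Hist1h4b, 93.9% for Hist1h4h, 89.7% for Hist2h4 and 87.2% for Hist4h4. Each coding sequence was also cut into all stretches of 50 bases, a length chosen because the read length is not stated. The share of stretches present in a transcript of another gene was 0% in Hist4h4, 6.08% in Hist2h4, 42.2% in Hist1h4d, 72.6% in Hist1h4h and 97.3% in Hist1h4b. Hist4h4 and Hist2h4 thus shared least, whereas Hist1h4m and Hist1h4n shared everything, and a second row of Hist1h4n that was left out lies within Hist1h4m. The class medians were 10.9% in H1, 92.3% in H2a, 81.6% in H2b, 84.7% in H3 and 70.3% in H4, so single values of most core histone genes are uncertain.

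The stem-loop is the element that sets these mRNAs apart, and it lies after the stop codon. The commonest hairpin there, with a perfect stem of 6 bases and a loop of 4, was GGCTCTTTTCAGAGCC. GENCODE transcripts of 41 members held it with at most 2 differing bases, 26 of them exactly, at 22 to 59 bases after the stop codon. The form in Hist1h4d, Hist1h4c, Hist1h4h and Hist4h4 was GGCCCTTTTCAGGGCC. Transcripts that end early in the annotation would show no match. In 30 members the deposited entry was exactly the coding part and so did not reach this element, among them 8 H4 genes of 312 bases. In contrast 15 members had a span of at least 1000 bases.

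By deposited FPKM, H4 made up most of the summed level in wt AL and in Ercc1 DR, and in Ercc1 AL its share was close to that of H2b at 40.3%. The 13 H4 genes summed to 450.1 FPKM in wt AL, 186 in Ercc1 AL and 386 in Ercc1 DR, which was 66.2%, 41.2% and 54.5% of the sum over all members. The Ercc1 AL library was the low one. The log2 ratio of the rescaled H4 sums was -1.77 in Ercc1 AL against wt AL, 0.72 in Ercc1 DR against Ercc1 AL and -1.00 in Ercc1 DR against wt AL. Without Hist1h4d, the H4 gene with the highest deposited FPKM in wt AL, these were -1.52, 0.58 and -0.90.

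The other classes are given as deposited sums first and rescaled ratios after. Listed from wt AL through Ercc1 AL to Ercc1 DR, the 19 H2b genes summed to 135, 182 and 212 FPKM and the 6 H1 genes to 9.35, 13.0 and 32.1 FPKM. The 18 H2a genes summed to 52.5, 41.6 and 52.9 FPKM and the 12 H3 genes to 33.4, 29.0 and 25.7 FPKM. In the order of the 3 comparisons above, the log2 ratios of the rescaled sums were -0.83, 0.01 and -0.77 in H2a, -0.70, -0.50 and -1.16 in H3 and -0.06, -0.11 and -0.13 in H2b. In H1 they were -0.02 in Ercc1 AL against wt AL, 0.97 in Ercc1 DR against Ercc1 AL and 0.998 in Ercc1 DR against wt AL. The H1 sum was thus highest in Ercc1 DR on both scales, but Hist1h1c alone held 24.0 of the 32.1 FPKM there. The median ratio of the 4 H1 genes measured in Ercc1 DR against wt AL was 0.06, so the high sum came mostly from Hist1h1c. The H2b sum was highest in Ercc1 DR as deposited and lowest there after rescaling, by small ratios.

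**Figure D1:**
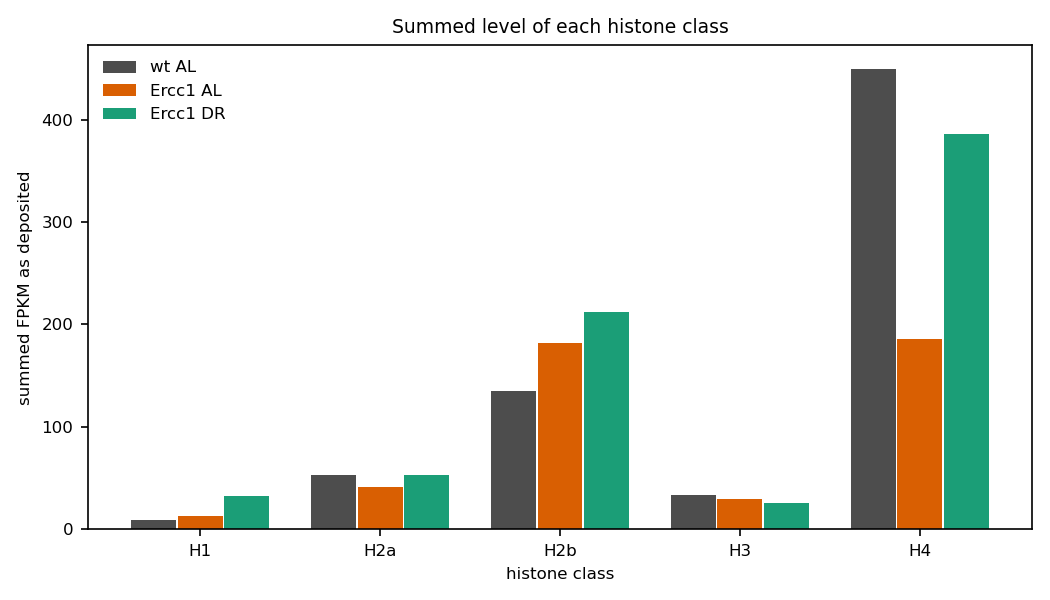
Summed FPKM as deposited (vertical axis) of the 5 histone classes (horizontal axis), 1 bar per library. H4 stands at 450.1 in wt AL, 186 in Ercc1 AL and 386 in Ercc1 DR, whereas the deposited sums of H2b and H1 are highest in Ercc1 DR.

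Hist1h4d, an H4 gene on chromosome 13 (mm10, 23581602 to 23581913), had 141 FPKM in wt AL, 33.7 in Ercc1 AL and 101 in Ercc1 DR. Ercc1 AL was the low library, and its deposited interval (11.3 to 14.4) lay below those of wt AL (49.3 to 57.3) and Ercc1 DR (35.0 to 41.1). The log2 ratio was -2.52 in Ercc1 AL against wt AL, 1.23 in Ercc1 DR against Ercc1 AL and -1.26 in Ercc1 DR against wt AL.

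Hist2h4, the H4 gene of the chromosome 3 cluster (96262970 to 96263317), had 34.7 FPKM in wt AL, 4.59 in Ercc1 AL and 20.8 in Ercc1 DR. It had the lowest ratio of all members in Ercc1 AL against wt AL, -3.12, and the highest in Ercc1 DR against Ercc1 AL, 1.67, and stood at -1.47 in Ercc1 DR against wt AL. Because little of its coding sequence is shared, this value depends less on other copies. Hist1h4c, on chromosome 13, had 35.7, 10.2 and 31.2 FPKM in the same order, with ratios of -2.18, 1.22 and -0.95.

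A further 6 H4 genes of 312 deposited bases lay close together in each library. Hist1h4a, Hist1h4b, Hist1h4f, Hist1h4j, Hist1h4k and Hist1h4n had 15.7 to 18.6 FPKM in wt AL, 5.45 to 6.81 in Ercc1 AL and 16.7 to 19.5 in Ercc1 DR. All 6 were lowest in Ercc1 AL, with ratios of -1.96 to -1.54 against wt AL. From Ercc1 AL to Ercc1 DR the ratios were 0.88 to 1.29, and against wt AL -0.79 to -0.64. These genes share sequence and are not separate measurements.

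The remaining H4 genes differed less in Ercc1 AL against wt AL and in Ercc1 DR against Ercc1 AL. Hist1h4h, with an entry of 478 bases, had 98.9 FPKM in wt AL, 78.8 in Ercc1 AL and 93.4 in Ercc1 DR, with ratios of -0.81, -0.09 and -0.86. Of the H4 genes on chromosome 13 it differed least between Ercc1 AL and wt AL. Hist1h4m had 22.9, 14.7 and 18.1 FPKM and Hist1h4i 11.1, 6.30 and 10.9 FPKM in the same order. Their ratios were -1.07, -0.03 and -1.07 in Hist1h4m and -1.16, 0.41 and -0.73 in Hist1h4i. Both were thus called lower in Ercc1 AL against wt AL. As Hist1h4m and Hist1h4n share all their stretches of 50 bases with other genes, the difference between their ratios is uncertain. Hist4h4, the H4 gene on chromosome 6 with an entry of 2879 bases, had 0.925, 1.22 and 1.13 FPKM, low in every library, with ratios of -0.05, -0.24 and -0.25.

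Counted over all classes, 16 of 60 measured members were at least 2-fold lower in Ercc1 AL than in wt AL and none was higher, beside 4.90% lower and 2.35% higher of all 12359 genes measured. The 16 were 11 of 13 H4 genes and 5 of 15 H2a genes. Of the 60, 52 had a ratio below 0, beside 6070 of all 12359 genes. Copies that share sequence are not separate measurements. The members' median log2 ratio was -0.67, beside 0.01 over all genes. Without rescaling 9 members were lower and none higher, beside 2.20% and 5.80%, and all 9 were H4 genes. In bulk liver, fewer cells of a type and less RNA per cell cannot be told apart.

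By class, the median ratio in Ercc1 AL against wt AL was -1.89 in H4, -0.91 in H2a, -0.62 in the 3 measured H1 genes, -0.55 in H2b and -0.53 in H3. After rescaling, the intervals of 34 members lay apart and lower, beside 27.6% of all genes, and those of 3 members apart and higher, beside 24.1%. The lower ones were 12 of 13 H4, 10 of 15 H2a, 5 of 17 H2b, 5 of 12 H3 and 2 of 3 H1 genes. The 3 higher ones were Hist1h1c, Hist2h2bb and Hist2h2be.

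**Figure D2:**
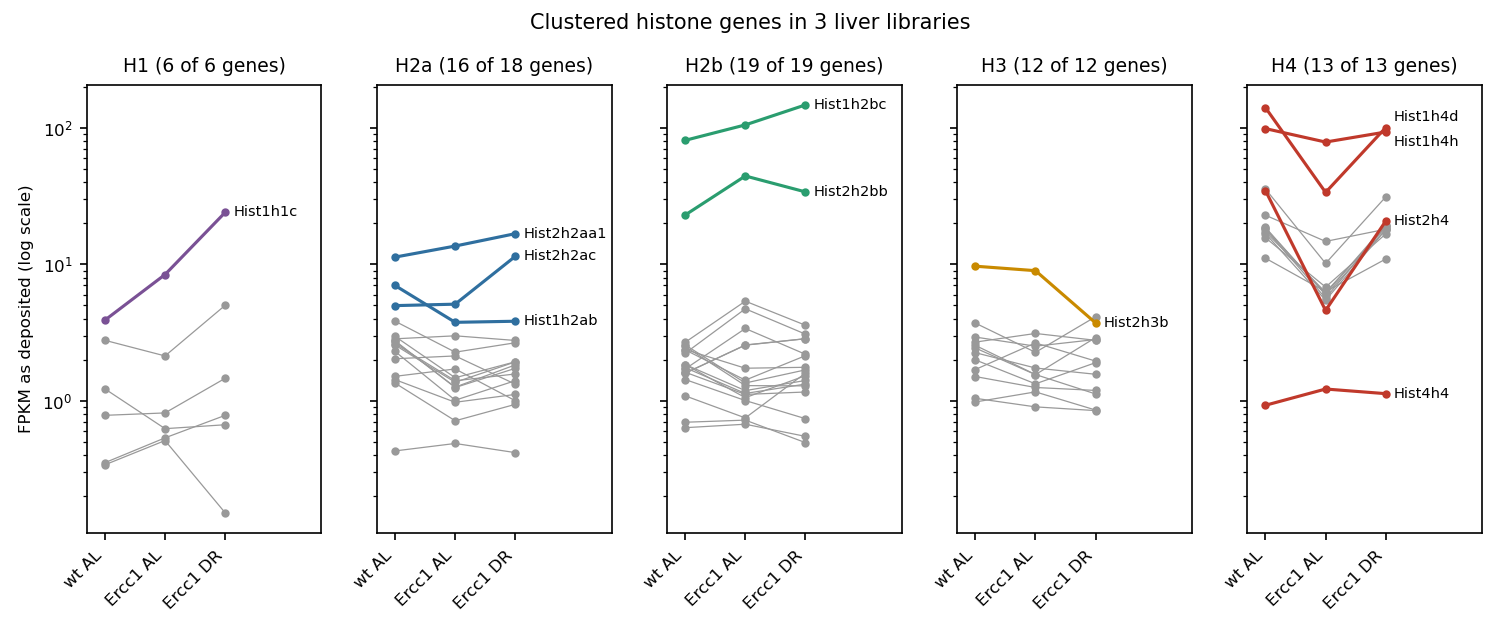
FPKM as deposited on a log axis (vertical) in the 3 libraries (horizontal), 1 panel per class and 1 line per gene. Coloured lines carry gene names, grey lines are the other genes, and 2 H2a genes under 0.05 FPKM in at least 1 library are not drawn. Most H4 lines are lowest in Ercc1 AL, such as Hist1h4d at 141, 33.7 and 101 FPKM, while Hist1h1c and Hist1h2bc are highest in Ercc1 DR.

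Among H2a genes, 5 were called lower in Ercc1 AL against wt AL. Hist1h2ab had 6.99 FPKM in wt AL, 3.75 in Ercc1 AL and 3.82 in Ercc1 DR, with ratios of -1.16, -0.24 and -1.38, so it was similar in both Ercc1 libraries. Hist1h2ad, Hist1h2ah, Hist1h2ai and Hist1h2ak had 2.30 to 2.96 FPKM in wt AL, 1.01 to 1.47 in Ercc1 AL and 1.40 to 1.93 in Ercc1 DR. Their ratios in Ercc1 AL against wt AL were -1.05 to -1.01, just past the limit, and without rescaling no H2a gene was called lower.

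H2a genes of the chromosome 3 cluster had other orders. Hist2h2aa1 had 11.3, 13.6 and 16.8 FPKM in the same order, with ratios of -0.21, -0.03 and -0.20, and its status was LOWDATA in every library. Another row of the same symbol overlaps Hist2h2aa2, which was under 0.3 FPKM in every library, so these genes cannot be separated. Hist2h2ac had 4.98, 5.10 and 11.4 FPKM, with its highest level in Ercc1 DR and ratios of -0.38, 0.74 and 0.37. Hist1h2ac, with a span of 2493 bases, had 2.03, 2.13 and 1.32 FPKM and Hist3h2a, on chromosome 11, 1.51, 1.71 and 0.998 FPKM, both lowest in Ercc1 DR.

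Of the H2b genes none was called in Ercc1 AL against wt AL. Hist1h2bc, with a span of 8282 bases, held most of the class and had 81.1 FPKM in wt AL, 105 in Ercc1 AL and 148 in Ercc1 DR. Its rescaled ratios were near 0, at -0.11, 0.15 and 0.08. Without it the other 18 H2b genes summed to 53.4, 76.4 and 64.1 FPKM.

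Some H2b genes were highest in Ercc1 AL. Hist2h2bb had 23.0 FPKM in wt AL, 44.5 in Ercc1 AL and 34.0 in Ercc1 DR, with ratios of 0.45, -0.70 and -0.21, and all its stretches of 50 bases occur in another gene. Hist2h2be, which shares none, had 2.68, 5.37 and 3.57 FPKM in the same order and ratios of 0.40, -0.75 and -0.28. Hist3h2ba and the pseudogene Hist3h2bb-ps, neighbours on chromosome 11, had 1.71, 3.38 and 2.19 FPKM and 2.23, 4.72 and 3.07 FPKM. In contrast Hist1h2bk and Hist1h2bb were lower in both Ercc1 libraries, at 2.50, 1.29 and 1.28 FPKM and 2.56, 1.35 and 1.68 FPKM. Hist1h2bq and Hist1h2br, copies with the same promoter sequence, had nearly the same values, 1.59, 2.56 and 2.85 FPKM and 1.59, 2.55 and 2.84 FPKM.

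Of the H3 genes, Hist2h3b had 9.68 FPKM in wt AL, 8.98 in Ercc1 AL and 3.71 in Ercc1 DR, with ratios of -0.54, -1.36 and -1.84. It was lowest in Ercc1 DR, and its rescaled intervals were apart and lower in each comparison. All its stretches of 50 bases occur in another gene. The other 11 H3 genes ranged from 0.977 to 3.71 FPKM in wt AL, 0.900 to 3.11 in Ercc1 AL and 0.845 to 4.13 in Ercc1 DR. Among these, Hist1h3e had 3.71, 2.26 and 4.13 FPKM, lowest in Ercc1 AL, and Hist1h3a had 2.54, 1.55 and 1.12 FPKM, lowest in Ercc1 DR. Hist1h3i was the 1 H3 gene with a ratio above 0 in Ercc1 AL against wt AL, at 0.11.

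The linker histone Hist1h1c, with a span of 1561 bases on chromosome 13 (23738807 to 23740367), had 3.89 FPKM in wt AL, 8.41 in Ercc1 AL and 24.0 in Ercc1 DR. The order was wt AL, Ercc1 AL, Ercc1 DR, and the rescaled intervals were apart in each comparison. Its ratios were 0.53, 1.10 and 1.66, the highest of any member in Ercc1 AL against wt AL and in Ercc1 DR against wt AL. Hist1h1e had 2.77, 2.13 and 5.01 FPKM, highest in Ercc1 DR, on an entry that overlaps Hist1h2be. Hist1h1d had 0.780, 0.813 and 1.46 FPKM and Hist1h1a 1.22, 0.623 and 0.665 FPKM. Hist1h1t, known as a testis linker histone, was under 1 FPKM in every library, as was Hist1h1b.

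In Ercc1 DR against Ercc1 AL, 9 of 58 measured members were at least 2-fold higher and 1 was lower, beside 3.12% and 12.0% of all 12361 genes. The 9 were Hist1h1c and 8 of 13 H4 genes, namely Hist2h4 and 7 of the 8 with entries of 312 bases. The lower one was Hist2h3b. Without rescaling 11 were higher and 1 lower, beside 6.50% and 8.71%. The rescaled intervals of 14 members were apart and higher and those of 8 apart and lower, beside 29.6% and 38.2%. The higher ones included 9 of 13 H4 genes and all 3 measured H1 genes.

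The members' median in Ercc1 DR against Ercc1 AL was -0.04, beside -0.06 over all genes. The class medians were 1.15 in H4, 0.69 in the 3 measured H1 genes, -0.05 in H2a, -0.13 in H2b and -0.30 in H3. H4 and H1 thus stood above the median of all genes, and the other classes near or below it.

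In Ercc1 DR against wt AL, 1 of 60 measured members was higher and 8 were lower, beside 6.02% and 16.4% of all 12127 genes. The higher one was Hist1h1c. The lower ones were Hist2h4, Hist1h4d and Hist1h4m of H4, Hist1h2ab and Hist1h2ao of H2a, Hist1h2bk of H2b, and Hist2h3b and Hist1h3a of H3. Hist1h2ao overlaps a row of Hist1h2ap, and all stretches of 50 bases of both occur in other genes, so these genes cannot be separated. Without rescaling 2 members were higher and 1 was lower, beside 24.0% and 8.63%. The rescaled intervals of 35 members were apart and lower and those of 1 apart and higher, beside 38.1% and 33.7%. The share of members called lower was below that of all genes, but the members' median was -0.67, beside -0.03 over all genes. Of the 60, 53 had a ratio below 0, beside 6307 of all 12127 genes, and copies that share sequence are not separate measurements. The class medians were -0.87 in H2a, -0.73 in H4, -0.64 in H2b, -0.56 in H3 and 0.06 in the 4 measured H1 genes. Without rescaling the members' median was -0.12, beside 0.50 over all genes. This comparison shares a library with each of the others.

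**Figure D3:**
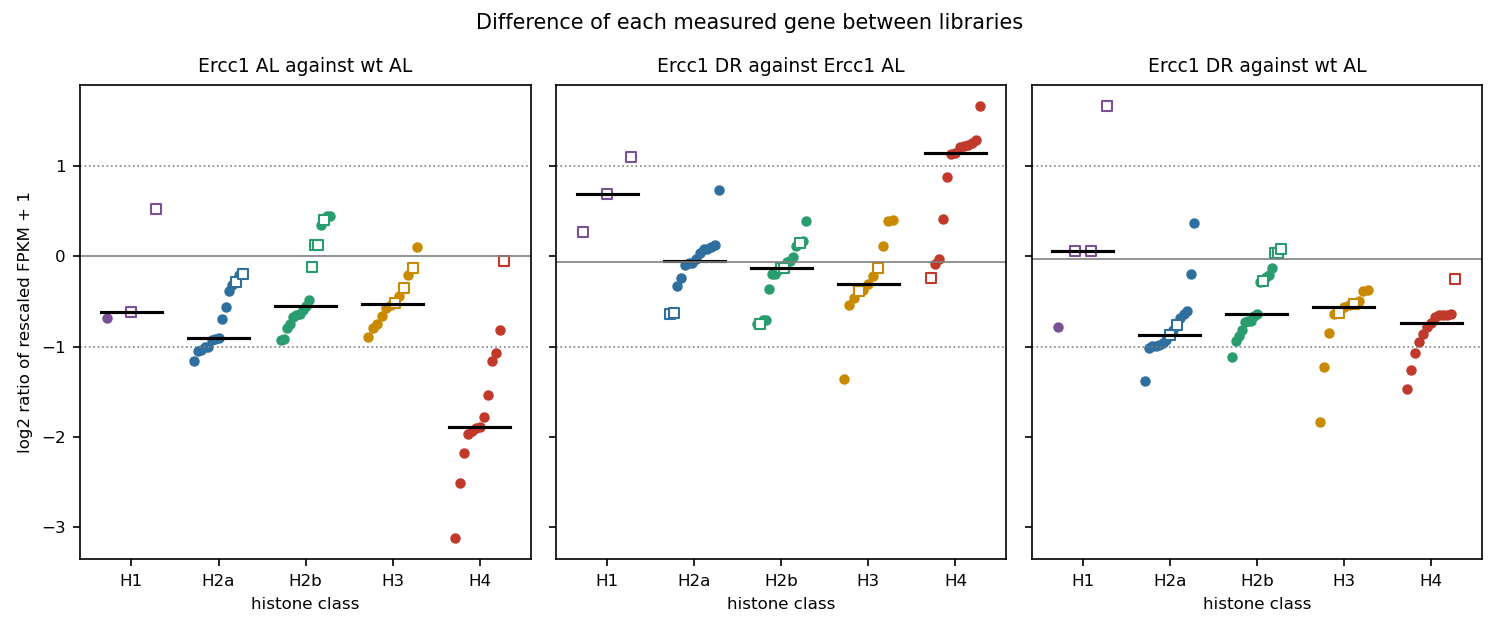
Log2 ratio of rescaled FPKM + 1 (vertical axis) of each measured gene by class (horizontal axis) in the 3 comparisons. Open squares are genes with a span of at least 1000 bases, filled circles shorter ones, black bars class medians, dotted lines the 2-fold limits and the grey line the median of all genes. The H4 median is -1.89 in the first panel, 1.15 in the second and -0.73 in the third.

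Entry length differed along with the ratios. In Ercc1 AL against wt AL none of the 12 measured members with a span of at least 1000 bases was called, and their median was -0.12. The 48 shorter members had a median of -0.80, and the 36 of these outside H4 had -0.67 with 5 called lower. Among 211 other genes with a span under 1000 bases, small RNA genes left out, the median was -0.22 and 36 were lower.

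In Ercc1 DR against Ercc1 AL such other short genes had a median of -0.65, with 37 of 171 lower and 4 higher, while the 12 short H4 genes had 1.18. In Ercc1 DR against wt AL other short genes had -0.88, with 87 of 190 lower, and the short H4 genes -0.76. The part of entry length in the members' ratios was not tested.

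FPKM of the shortest entries stood above its own deposited interval. In the 8 members of 312 bases, FPKM was 2.53 times the midpoint of the interval in the median, and all 24 values exceeded the upper bound. Of members over 312 and under 500 bases 86 of 99 values exceeded it, from 500 and under 1000 bases 12 of 36, and at 1000 bases or more 5 of 45, with a median of 1.04 times. These 5 were Hist1h2bc in every library, at 1.36 times the midpoint, and Hist1h1c at 1.11 times in Ercc1 AL and 1.12 in Ercc1 DR. Hist1h4m, of 405 bases, lay within its interval in every library. Levels of members of different span are therefore not on the same scale. By midpoints the H4 sum was 214 in wt AL, 101 in Ercc1 AL and 185 in Ercc1 DR, with rescaled log2 ratios of -1.56, 0.52 and -0.99. The sum over all members by midpoints was 379, 293 and 423, so H4 made up most of it in wt AL only. The H2b sum by midpoints was 95.5, 129 and 152, above H4 in Ercc1 AL.

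**Figure D4:**
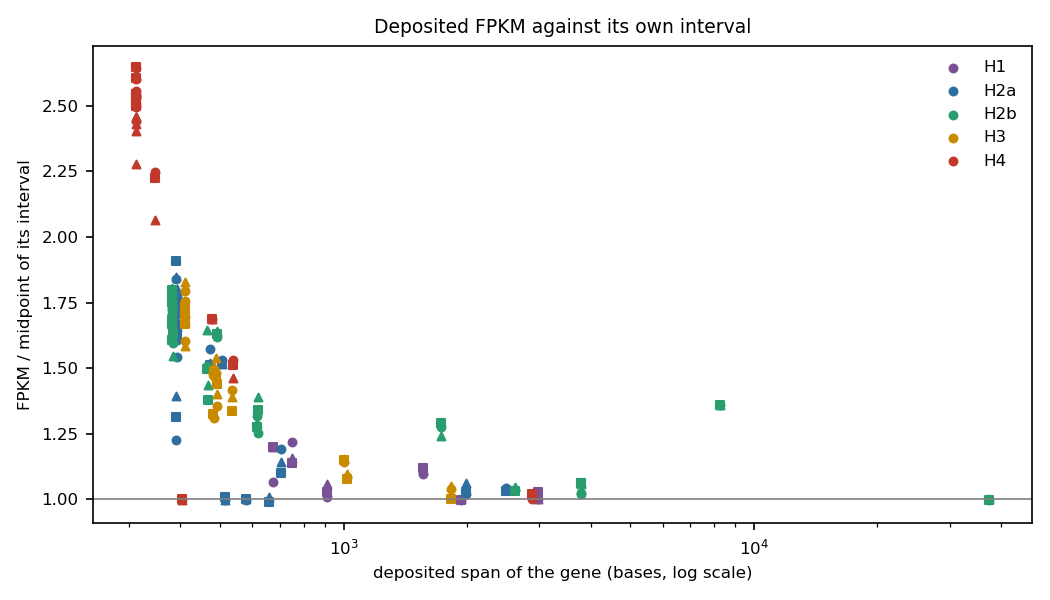
Deposited FPKM divided by the midpoint of its own interval (vertical axis) against the deposited span in bases on a log axis (horizontal), for values of 0.05 FPKM or more. Circles are wt AL, triangles Ercc1 AL and squares Ercc1 DR, coloured by class, and the grey line is at 1. Members of 312 bases lie around 2.53 and those of at least 1000 bases around 1.04.

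Promoters are shown for Hist1h4d, which was low in Ercc1 AL, for Hist1h4h, which differed less from wt AL than Hist1h4d did, and for Hist1h1c, which was highest in Ercc1 DR. RefSeq sequences from 250 bases before to 50 after the start (GRCm38.p6) were matched for 61 of 68 members, and Hist2h4 was not among them. All 3 lie on the plus strand, Hist1h4d at chr13:23581318-23581617, Hist1h4h at chr13:23530794-23531093 and Hist1h1c at chr13:23738557-23738856. Capitals mark matches on either strand to the motifs named after them.
Hist1h4d: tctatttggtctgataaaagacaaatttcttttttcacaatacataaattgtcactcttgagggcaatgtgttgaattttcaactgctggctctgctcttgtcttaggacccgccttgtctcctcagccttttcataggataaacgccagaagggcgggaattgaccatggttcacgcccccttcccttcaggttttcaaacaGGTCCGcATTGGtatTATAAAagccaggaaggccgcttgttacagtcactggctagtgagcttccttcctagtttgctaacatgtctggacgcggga
Hist1h4h: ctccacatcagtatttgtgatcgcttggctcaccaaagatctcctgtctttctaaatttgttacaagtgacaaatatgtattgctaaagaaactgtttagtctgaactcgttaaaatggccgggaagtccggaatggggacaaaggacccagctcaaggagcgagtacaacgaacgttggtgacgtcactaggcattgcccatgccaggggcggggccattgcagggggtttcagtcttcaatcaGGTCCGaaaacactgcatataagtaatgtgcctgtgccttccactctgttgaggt
Hist1h1c: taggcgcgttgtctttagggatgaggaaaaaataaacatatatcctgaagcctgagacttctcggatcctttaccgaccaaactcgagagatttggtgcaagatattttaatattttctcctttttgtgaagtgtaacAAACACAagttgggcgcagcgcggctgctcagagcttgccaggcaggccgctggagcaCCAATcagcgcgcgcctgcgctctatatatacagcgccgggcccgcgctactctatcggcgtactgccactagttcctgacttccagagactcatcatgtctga
The letters GGTCCG, part of a cell cycle element of H4 promoters, stood in 11 of 12 H4 promoters, in 1 H2b and in 1 H3 promoter, beside 8.25% of 32851 promoters of the same length. Both Hist1h4d and Hist1h4h hold them. The letters CCAAT stood in 3 of 12 H4 promoters and in every matched promoter of the other classes, beside 37.4%. The H1 box AAACACA stood in 5 of 6 H1 promoters, beside 7.18%. The octamer ATTTGCAT stood in 7 of 17 H2a and 6 of 16 H2b promoters, beside 1.74%. The letters TATAAA stood in 35 of 61, beside 13.6%. In 1 member promoter matches of different motifs overlapped, and both were counted. A match describes letters and does not show that a factor binds.

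Genes of the same pathways outside the clusters were read from lists. Of 11 replacement histone genes 8 were measured, and none was called in any comparison. H3f3b, which encodes histone H3.3, had 6.52 FPKM in wt AL, 11.7 in Ercc1 AL and 20.9 in Ercc1 DR, and H2afz, which encodes an H2A variant, had 14.3, 19.3 and 43.2 FPKM in the same order. Both were highest in Ercc1 DR. The list's median log2 ratios were -0.02, 0.13 and 0.28 in Ercc1 AL against wt AL, Ercc1 DR against Ercc1 AL and Ercc1 DR against wt AL.

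Of 15 genes listed under 3' processing and decay of histone mRNA, 13 were measured, and 1 was called in 1 comparison. The list as chosen also names Cbx3, which encodes a heterochromatin protein, so it is not of that pathway alone. Slbp, the stem-loop binding protein, had 1.88 FPKM in wt AL, 3.65 in Ercc1 AL and 9.29 in Ercc1 DR, with ratios of 0.34, 0.86 and 1.22. The list's medians were 0.11, -0.03 and 0.02.

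Factors of histone gene transcription were low, and none of the 3, 5 and 5 measured was called, with medians of 0.16, -0.12 and -0.05. Npat, the coactivator of these genes, had 0.810, 0.864 and 1.01 FPKM. Of 14 histone chaperone genes 11 were measured and none was called, with medians of 0.18, 0.20 and 0.38. Nasp, a chaperone of H3 and H4, had 1.37, 2.33 and 4.51 FPKM.

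Of 27 genes of S phase and the cell cycle, 1 of 12 measured was lower in Ercc1 AL against wt AL, 4 of 14 in Ercc1 DR against Ercc1 AL and 3 of 12 in Ercc1 DR against wt AL, and none was higher. Mcm2, a subunit of the replicative helicase, had 12.0 FPKM in wt AL, 5.28 in Ercc1 AL and 1.51 in Ercc1 DR. Mcm7, another subunit, had 5.14, 12.6 and 5.65 FPKM and Pcna, the polymerase clamp, 3.18, 5.79 and 11.1 FPKM, so the list's members had different orders. Mki67, a proliferation marker, was at 0.318, 0.456 and 0.495 FPKM. The list's medians were 0.02, -0.20 and -0.28. Of 6 noncoding RNA genes whose RNA has no poly(A) tail, 1 was lower and none higher in Ercc1 AL against wt AL, 1 was lower and 1 higher in Ercc1 DR against Ercc1 AL, and 3 were lower and none higher in Ercc1 DR against wt AL, with medians of -0.43, -0.47 and -0.95. The 1 lower in the first comparison and the 1 higher in the second are Rnu7, an entry of 25 bases of status LOWDATA in every library, whose intervals all begin at 0 and overlap, so it shows no difference.

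Markers of other cells also differed between the libraries. Sums are in FPKM as deposited, listed from wt AL through Ercc1 AL to Ercc1 DR, and log2 ratios of the rescaled sums are in the order of the 3 comparisons above. The 6 erythroid markers summed to 912, 573 and 288 FPKM, with ratios of -1.16, -1.33 and -2.44, and in Ercc1 AL against wt AL 2 of 5 measured were lower and 1 was higher. Klf1, an erythroid transcription factor, held most of the wt AL and Ercc1 AL sums, and without it the other 5 summed to 154, 92.7 and 155 FPKM, lowest in Ercc1 AL, with ratios of -1.22, 0.41 and -0.77. The median level of the 6 was 3.69, 9.74 and 2.15 FPKM, highest in Ercc1 AL, so the list had no single order.

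The 6 B cell and lymphocyte markers summed to 26.8, 15.8 and 6.98 FPKM, with ratios of -1.25, -1.51 and -2.72 and 1 of 1 measured lower in Ercc1 AL against wt AL. The 7 neutrophil markers summed to 9.05, 7.19 and 3.67 FPKM, with ratios of -0.82, -1.31 and -2.08 and 1 of 2 lower. The 8 spermatid and spermatocyte markers summed to 8.02, 30.5 and 9.70 FPKM, with ratios of 1.44, -1.99 and -0.51 and 1 of 3 higher. In each library 1 of the 6 B cell markers reached 1 FPKM. Median levels were 0.463, 0.560 and 0.264 FPKM in that list and 0.474, 0.696 and 0.430 FPKM in the neutrophil list. In the spermatid list they were 0.300, 0.387 and 0.237 FPKM. Each median was under 1 FPKM and highest in Ercc1 AL, so these sums came mostly from few genes. The 6 macrophage markers found summed to 14.8, 19.1 and 13.0 FPKM, with ratios of -0.13, -0.89 and -0.97 and none of 6 called. Of 7 hepatocyte markers Alb was missing in every library, and the other 6 summed to 2657, 3092 and 6471 FPKM. Their rescaled ratios were -0.27, 0.73 and 0.50, so on that scale the hepatocyte sum was lowest in Ercc1 AL. The H4 sum was also lowest there, at -1.77 against wt AL. None of the 6 hepatocyte markers was called in Ercc1 AL against wt AL. The list's median ratios were -0.06, 0.58 and 0.54. No listed marker was at 0. The part of these markers in the members' ratios was not tested.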

How the data were processed

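Liver RNA was depleted of ribosomal RNA and sequenced, per the labels' protocols. The authors deposited a table of 23850 rows per library with FPKM, an interval and a status, per the file headers. The genome build is mm10, per the submitters' processing notes. For the quantification tool, the annotation and the use of strand, the answer is not given in the sources used here, so antisense genes may share reads. The tables hold no counts, and depth is unknown. Values of status HIDATA (59 in wt AL, 91 in Ercc1 AL, 55 in Ercc1 DR) or FAIL (3, 5 and 1) were missing. Values of status LOWDATA were kept, among the members those of Hist2h2aa1 and Hist1h2ap.

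Libraries of a pair were rescaled by the median log2 FPKM ratio of genes at 1 FPKM or more in each of the 3, with an equal part taken from either side. A pseudocount of 1 was added. The rescaling and the 2-fold calls were tested on simulated data without a pseudocount or shared fragments. The planted differences lay well past 2-fold and the noise was small, so this does not show how calls close to 2-fold behave. The ratios with 1 added were not tested in this way. No test was run, since each group has 1 library. Members and lists were chosen with earlier results of these data known. Genes named by rule had at least 5 FPKM, a span of at least 1000 bases or the 3 largest ratios of a class, and up to 4 per list, besides Slbp, Npat and Mki67. Not every such gene is described, and H3f3b, H2afz, Nasp, Pcna and the marker genes were picked for description after their values were seen. The motifs, the stretches of 50 bases, the sequences printed, the ranges of span beside the intervals, the marker sum without Klf1 and the 12 genes recomputed singly were also chosen after values were seen. Coordinates count from 1. Python 3.11.15, pandas 2.3.3 and numpy 2.4.6 were used. Alternatives were other scalings, pseudocounts, minimums, interval midpoints and sums of repeated rows.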

Additional observations from a re-analysis of the deposited data

How the results depend on the processing

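With 1 library per group none could be left out in turn. No paired analysis was possible because no result comes from a test. Over 9 counts and medians under 9 alternatives, 62 values stayed within 1.5 times (counts) or 0.1 log2 (medians) of those reported, 16 moved and 3 changed sign. In Ercc1 AL against wt AL, 16 members were lower, against 9 without rescaling, 31 at a pseudocount of 0.1 and 8 without the H4 genes of 312 bases, an alternative chosen after seeing the data. Within 1.5 times were 12 at a minimum of 5 FPKM or by interval midpoints and 17 with repeated rows summed. Also within it were 11 after rescaling over genes with a span under 2000 bases or to the sum of FPKM. The median of -0.67 was -0.36 without rescaling, -1.03 at a pseudocount of 0.1 and -1.16 at a minimum of 5 FPKM. In Ercc1 DR against Ercc1 AL, 9 members were higher, against 2 without the H4 genes of 312 bases, and 1 was lower, against 2 at a pseudocount of 0.1. The median of -0.04 was 0.22 without rescaling, 0.81 at a minimum of 5 FPKM and 0.14 after rescaling over genes with a span under 2000 bases. In Ercc1 DR against wt AL, 8 members were lower, against 1 without rescaling, 27 at a pseudocount of 0.1, 5 at a minimum of 5 FPKM and 4 after rescaling over short genes, and 1 was higher, against 2 without rescaling. The median of -0.67 was -0.12 without rescaling, -0.93 at a pseudocount of 0.1 and -0.46 after rescaling over short genes. The cause was not tested, except that leaving out genes leaves fewer to count.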
